A study of Mus musculus with 8 samples.

Results

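Septins are GTP-binding proteins that join end to end into rods and filaments beneath the plasma membrane, where they act as scaffolds and as barriers to diffusion. A rod is built from members of different sequence subgroups, named after SEPT2, SEPT3, SEPT6 and SEPT7, and a member can usually be replaced by another of its own subgroup. In the brain septins are known at presynaptic terminals, at the necks of dendritic spines, in the filaments of the innermost myelin layer, at the base of the primary cilium and in the fine processes of glia. The mouse genes were long called Sept1, Sept2 and so on, and a spreadsheet reads such a name as a day in September. The counts therefore hold rows named 2-Sep to 11-Sep, which are the septin genes of those numbers (4-Sep is Sept4, now Septin4), and these 10 of 24047 rows are described here. They were chosen by row name alone, but the family was taken up because 4-Sep was already known to pass the test between genotypes. The values of 4-Sep between genotypes are therefore a description and support nothing. The row 15-Sep is not a septin and was left out, and 3 further septin rows, 1-Sep, 12-Sep and 14-Sep, had at most 7, 1 and 1 counts in a library.

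RNA came from cells of the mouse somatosensory cortex sorted for the red fluorescent protein tdTomato, 4 libraries per genotype. WT mice carried Glast-CreERT2, a tamoxifen-inducible recombinase driven by a promoter active in astrocytes and their precursors, and the Ai14 reporter, which turns on tdTomato in cells where the recombinase has acted and in their progeny. Ptch1cKO mice carried the same alleles and were homozygous for floxed Ptch1, the receptor that holds Hedgehog signalling off in the absence of ligand. All mice received tamoxifen on postnatal days 12 to 14 and were taken on days 23 to 25. The comparison addresses which transcripts differ in these cells once Ptch1 is removed after birth. Nothing in the labels says that the libraries of a genotype came from separate animals. The headers of the count columns carry prefixes whose meaning is not given, and no prefix is shared between genotypes. Whatever they stand for cannot be told apart from genotype. The p-values here speak of library-to-library spread, which may be partly technical in WT and wholly so in Ptch1cKO.

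Libraries held 4061274 to 7206462 counts. Ptch1 had 285, 227, 491 and 425 CPM (counts scaled to a common library size) in WT and 219, 249, 168 and 258 CPM in Ptch1cKO, and the groups overlapped. By edgeR's quasi-likelihood test over all genes its Benjamini-Hochberg adjusted p was 0.349. Reads from exons outside the floxed stretch are included in that count. Xist, the RNA that silences one X chromosome in female cells, was counted 1148 and 612 times in replicates 2 and 3 of WT and at most 4 times in the other 6 libraries, so WT was mixed in sex pattern and Ptch1cKO was not. Ddx3y, a gene of the Y chromosome, had 0 counts in WT replicates 2 and 3 and 498 to 1073 in the other 6. The WT libraries therefore did not all come from the same animal. Which of the other libraries share an animal is not known. Astrocyte markers were abundant, with Slc1a2, the main glutamate transporter, at a mean of 18620 CPM in WT. Markers of myelinating oligodendrocytes and neurons were abundant as well, with Mbp, a myelin protein, at 13613 CPM and Camk2a, a kinase of excitatory neurons, at 9389 CPM in WT. The septin counts therefore come from RNA that carries markers of several cell types. In such RNA a change in the number of cells of a type and a change in RNA per cell cannot be told apart.

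Sept4 belongs to the SEPT2 subgroup. It is known from astrocytes, from the septin filaments of myelin and from the ring that divides the sperm tail, and a shorter product of the gene, ARTS, promotes apoptosis. The gene lies on chromosome 11 of mm10 at 87568903 to 87590539, plus strand, with 18 transcripts in GENCODE M21. RefSeq (GRCm38.p6) gives it 4 promoter windows of 300 bases, each from 250 bases before a transcription start to 50 after it. A pair of these that do not overlap each other is printed, since it is this gene whose counts differed between genotypes, and they hold 3 and 5 of its GENCODE transcript starts. The first is chr11:87578139-87578438 and the second chr11:87580811-87581110, both on the plus strand. Capitals mark the CCAAT box and the GC box (GGGCGG), each searched on both strands.

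Sept4 start at 87578389: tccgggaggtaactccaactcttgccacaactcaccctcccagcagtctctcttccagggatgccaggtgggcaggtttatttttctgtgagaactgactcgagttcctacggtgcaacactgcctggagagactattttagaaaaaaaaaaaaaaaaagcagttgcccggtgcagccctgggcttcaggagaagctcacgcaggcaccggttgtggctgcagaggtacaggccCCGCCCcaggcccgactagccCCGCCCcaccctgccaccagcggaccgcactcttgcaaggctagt

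Sept4 start at 87581061: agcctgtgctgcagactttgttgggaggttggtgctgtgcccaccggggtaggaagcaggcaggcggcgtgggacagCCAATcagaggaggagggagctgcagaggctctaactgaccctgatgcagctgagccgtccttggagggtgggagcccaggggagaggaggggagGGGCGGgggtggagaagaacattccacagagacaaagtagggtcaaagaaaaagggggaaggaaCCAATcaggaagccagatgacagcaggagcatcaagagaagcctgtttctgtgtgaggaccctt

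The upstream window held 2 GC boxes and no CCAAT box, and the downstream window held 2 CCAAT boxes and 1 GC box. Over all 32851 promoter windows of the same length, 37.4% held a CCAAT box and 35.7% a GC box. The GLI binding motif GACCACCCA, the sequence through which Hedgehog signalling acts on its targets, was in 0 of the 16 windows of the 7 septin genes with an entry, against 0.253% of all windows. Its core CCACCCA, which lies within that motif, was in 1 of the 16, a window of Sept7, against 9.30% of all windows. Windows of this length leave out distant enhancers, and the counts do not tell which start the transcripts used.

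In WT the row 4-Sep (Sept4) had 113, 128, 173 and 170 CPM, and in Ptch1cKO it had 239, 381, 273 and 409 CPM. All 4 Ptch1cKO libraries lay above all 4 WT libraries, and replicates 2 and 4 were the highest. The means were 146 ± 30.2 CPM in the WT libraries and 325 ± 82.2 CPM in those of Ptch1cKO (SD, n = 4), a ratio of 2.23. On the log2 scale the fold change was 1.16, with a standard error (SE) of 0.19 and a 95% interval of 0.75 to 1.56. Over all 10954 genes tested, 82 had a larger positive fold change, and among the 1744 whose mean reached 100 CPM, 4 had one. The value that led to the family being chosen was its adjusted p of 0.0371 (quasi-likelihood test of edgeR, Benjamini-Hochberg over 10954 genes).

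Of the 10 septin rows, 4-Sep was the 1 called, beside 11 of all 10954 genes tested (0.1%), of which those higher in Ptch1cKO were 0.0822% of all. The same row was the 1 whose groups did not overlap, beside 550 of all genes (5.02%), with Ptch1cKO above in 2.52% and WT above in 2.5%. Nothing is read from these counts, since that call chose the family. The 16 alternative analyses gave 4-Sep log2 fold changes of 1.02 to 1.28, and its call was kept in 7. Their shared sign supports nothing, since with groups that do not overlap, leaving out libraries could not turn it. Without WT replicate 1, 2, 3 or 4 the adjusted p was 0.108, 0.107, 0.0676 and 0.0754, and without Ptch1cKO replicate 2, 3 or 4 it was 0.0513, 0.0574 and 0.132 (edgeR, Benjamini-Hochberg). In the 6 libraries with under 10 Xist counts the log2 fold change was 1.21 (SE 0.25), with an edgeR adjusted p of 0.203, and by limma on the authors' log2(TPM + 1) it was 1.02, with an adjusted p of 0.129.

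**Figure D1:**
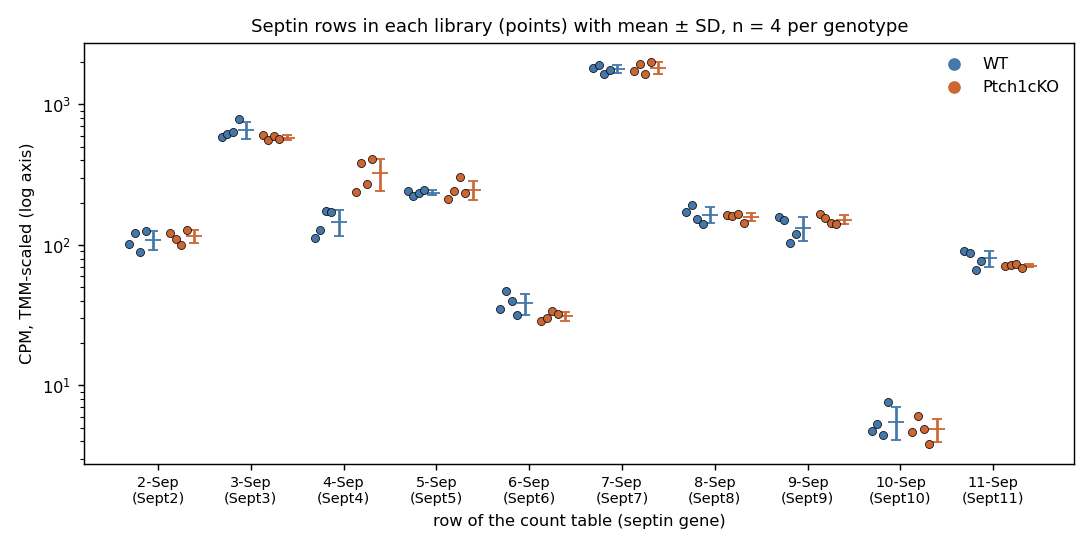
Counts scaled to library size (CPM, log axis) of the 10 septin rows in each library, with replicates 1 to 4 from left to right, and the mean ± SD of 4 libraries beside them, in blue for WT and orange for Ptch1cKO. The groups part in 4-Sep, from 113 to 173 CPM in the WT libraries and 239 to 409 CPM in those of Ptch1cKO, and overlap in the other 9 rows.

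The remaining members of the SEPT2 subgroup did not pass. Sept2 (2-Sep; chromosome 1, 93478964 to 93510260, plus strand) is made in most cells, binds non-muscle myosin and takes part in the barrier at the base of the primary cilium, the organelle through which Hedgehog signals pass. It had 101, 121, 88.3 and 125 CPM in the WT libraries and 122, 110, 99.9 and 128 CPM in those of Ptch1cKO. The groups covered nearly the same range, and the log2 fold change was 0.08 (SE 0.15). Sept5 (5-Sep; chromosome 16, 18620502 to 18629954, minus strand) is a neuronal septin that binds syntaxin at presynaptic terminals. It had 241, 223, 235 and 244 CPM in WT, the most even of the family, and 212, 243, 302 and 233 CPM in Ptch1cKO. The log2 fold change was 0.07 (SE 0.13), with Ptch1cKO replicate 3 alone above the WT range and replicate 1 alone below it. Exons of Sept5 share 1902 bases with Gp1bb on the same strand, a gene with at most 30 counts in a library, so reads there could have been split between them.

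Sept7 (7-Sep; chromosome 9, 25252439 to 25308571, plus strand) is the sole member of its subgroup and a part of nearly all septin rods. It had 1816, 1906, 1638 and 1758 CPM in the WT libraries and 1730, 1925, 1631 and 2007 CPM in those of Ptch1cKO. The means were 1779 ± 112 and 1823 ± 173 CPM (SD, n = 4), and the groups overlapped almost entirely. The log2 fold change was 0.04 (SE 0.11), with a 95% interval of -0.21 to 0.28.

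In the SEPT3 subgroup, Sept3 (3-Sep; chromosome 15, 82274893 to 82294574, plus strand) is a neuronal septin of axon terminals. It had 582, 614, 640 and 792 CPM in the WT libraries and 602, 557, 597 and 568 CPM in those of Ptch1cKO. WT replicate 4 was the highest and the Ptch1cKO libraries spread little, at 581 ± 21.7 CPM against 657 ± 93.0 CPM in WT (SD, n = 4). This was a log2 fold change of -0.18 (SE 0.12). Sept9 (9-Sep; chromosome 11, 117199661 to 117362325, plus strand), which can sit within the longer rods and binds actin and microtubules, had 157, 150, 103 and 120 CPM in the WT libraries and 165, 156, 144 and 140 CPM in those of Ptch1cKO. WT replicates 3 and 4 lay below every Ptch1cKO library and WT replicates 1 and 2 lay among them. The log2 fold change was 0.19 (SE 0.15), the largest positive value after 4-Sep.

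The SEPT6 subgroup has 4 members in these rows, which fill the same place in a rod. Sept8 (8-Sep; chromosome 11, 53519257 to 53549565, plus strand), known from synaptic vesicles and from myelin, had 142 to 192 CPM in the WT libraries and 142 to 167 CPM in those of Ptch1cKO. Sept11 (11-Sep; chromosome 5, 93093437 to 93176447, plus strand), known from dendrites and inhibitory synapses, had 90.2, 86.9, 66.4 and 77.4 CPM in the WT libraries and 68.8 to 73.1 CPM in those of Ptch1cKO. The Ptch1cKO libraries of Sept11 lay inside the WT range. The log2 fold changes were -0.05 (SE 0.13) for Sept8 and -0.18 (SE 0.15) for Sept11. Sept10 (10-Sep; chromosome 10, 59141627 to 59221847, minus strand) had 20 to 37 counts in a library and a log2 fold change of -0.18 with a 95% interval of -0.86 to 0.51. That interval is the widest of the family, and the counts are its lowest.

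Sept6 (6-Sep) is the X-linked member (36911326 to 36991794, minus strand) and is known from axon branching. It had 35.0, 46.7, 40.1 and 31.7 CPM in the WT libraries and 28.5, 30.4, 33.9 and 32.1 CPM in those of Ptch1cKO. The 2 highest values were those of WT replicates 2 and 3, the libraries with Xist, whereas WT replicate 1 lay just above the Ptch1cKO range and WT replicate 4 inside it. The log2 fold change was -0.30 (SE 0.18) over all 8 libraries, the most negative of the 10 rows, and -0.10 (SE 0.22) in the 6 libraries with under 10 Xist counts. Whether sex has a part in the difference was not tested. An exon of Sept6 overlaps the opposite-strand Gm15008, which had at most 2 counts.

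**Figure D2:**
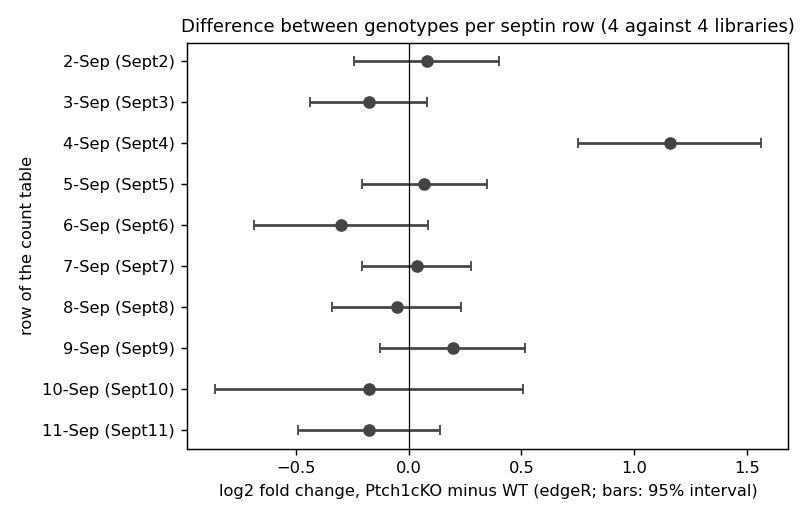
Log2 fold change of each septin row, Ptch1cKO minus WT, from edgeR with its 95% interval (4 against 4 libraries). The interval of 4-Sep, 0.75 to 1.56, lies above 0, and those of the other 9 rows include 0.

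Across the 9 rows other than 4-Sep, log2 fold changes ran from -0.30 to 0.19, and adjusted p-values from 0.645 to 0.966 (edgeR, Benjamini-Hochberg over all genes). Unadjusted p-values were at least 0.118, where 1023 of all genes (9.34%) had one under 0.05. Of the 10 rows 5 had negative fold changes, beside 5516 of all genes tested (50.4%), and the median of the 10 was -0.0090 beside -0.0019 over all genes. The intervals of the 9 rows do not show that these septins were the same in both genotypes. The narrowest, that of Sept7, runs from -0.21 to 0.28, and the widest, that of Sept10, from -0.86 to 0.51.

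To compare septins with each other, the authors' deposited TPM were used, which scale for transcript length and for library. These libraries were enriched with exome capture probes, so levels of different genes also depend on capture. Sept7 had the highest level by far, at 1916 ± 188 TPM over the 8 libraries. Sept3 followed at 348 ± 57.8, Sept4 at 341 ± 155 and Sept5 at 306 ± 25 TPM (SD, n = 8). The next group was Sept8 at 92.5 ± 10.7, Sept2 at 89.8 ± 13.5 and Sept9 at 88.2 ± 12 TPM (SD, n = 8). Sept11 had 40.1 ± 5.71, Sept6 13.8 ± 2.75 and Sept10 5.29 ± 1.40 TPM (SD, n = 8).

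Of the 9 pairs of neighbours in this order, 5 were told apart, each with the higher member above in 8 of 8 libraries (exact two-sided sign-flip permutation test on log2(TPM + 1), p = 0.0078, the smallest it can give, adjusted p = 0.0141 over 9 pairs). These were Sept7 over Sept3, Sept5 over Sept8, Sept9 over Sept11, Sept11 over Sept6, and Sept6 over Sept10. The pairs Sept8 and Sept2, and Sept2 and Sept9, did not differ beyond their spread (exact sign-flip permutation test, adjusted p = 0.794 and 0.875). For Sept3 and Sept4, and Sept4 and Sept5, the exact sign-flip permutation test over the 8 libraries gave adjusted p = 0.794 and 0.875. It cannot decide their order, because that order was opposite in the genotypes and the signs cancel. This rests on the Sept4 difference that chose the family, so nothing is read from these p-values. Both pairs are among the 9 over which p was adjusted.

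Sept4 lay below Sept3 and below Sept5 in 4 of 4 WT libraries and above both in 4 of 4 Ptch1cKO libraries. In WT it had 167, 196, 262 and 268.0 TPM, and Sept5 had 309, 296, 309 and 334 TPM. In Ptch1cKO it had 342, 549, 359 and 588 TPM, and Sept5 had 264, 304, 344 and 290 TPM. The ratio of Sept4 to Sept5, its subgroup partner, went from 0.71 ± 0.14 in WT to 1.54 ± 0.45 in Ptch1cKO, and that to Sept3 from 0.58 ± 0.09 to 1.48 ± 0.42 (SD, n = 4). Among the Ptch1cKO libraries the ratio came nearest to equal levels in replicate 1 against Sept3 and in replicate 3 against Sept5, at 1.04 in both. Ranked by mean TPM among the 10 rows, Sept4 was number 4 in WT and number 2 in Ptch1cKO, behind Sept7 in both. These ratios use the difference that chose the family and are a description. They and the order also depend on the transcript lengths behind the TPM, which count over TPM implies. Those were 1840.6 bases for Sept4, 2121.5 for Sept5 and 4810.5 for Sept3, or 0.86, 0.58 and 0.96 of the longest GENCODE transcript. In CPM, which are not scaled for length, Sept3 had 557 to 602 in Ptch1cKO, above Sept4 at 239 to 409. Sept5 lay below Sept4 there except in replicate 3 (302 against 273 CPM). Other lengths were not tried.

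As a share of the summed TPM of the 10 rows, Sept4 was 5.37, 5.85, 8.65 and 7.81% in WT and 11.1, 15.7, 12.6 and 16.3% in Ptch1cKO. Library scaling drops out of this share, and the groups do not overlap on it. The share restates, from the same counts, the difference that chose the family and is a description. How many of all genes part on such a scale was not counted. The whole SEPT2 subgroup made up 19.4 ± 1.83% in WT and 26.0 ± 2.14% in Ptch1cKO, and without Sept4 it made up 12.5 ± 0.44% and 12.1 ± 1.72% (SD, n = 4). Sept7 had 61.0 ± 2.32 and 57.2 ± 1.76%, the SEPT3 subgroup 14.5 ± 1.21 and 12.5 ± 1.43%, and the SEPT6 subgroup 5.08 ± 0.51 and 4.33 ± 0.53% (SD, n = 4). Shares add up to the whole, so a higher share of Sept4 lowers the others. The summed level of the 10 rows was 3228 ± 193 TPM in WT and 3255 ± 355 TPM in Ptch1cKO, and of the 9 rows without Sept4 3005 ± 191 and 2796 ± 238 TPM (SD, n = 4). Both sums overlapped between genotypes.

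**Figure D3:**
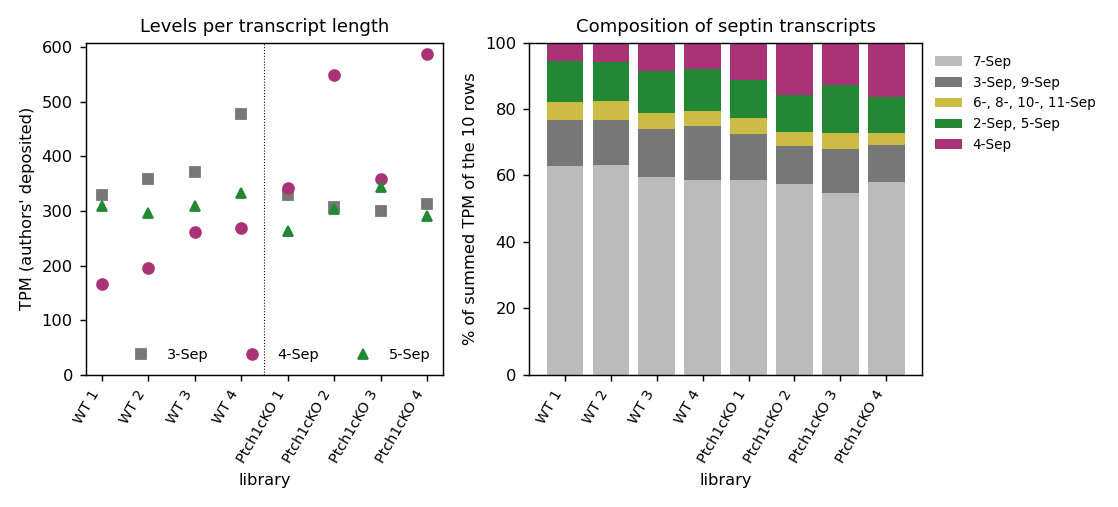
Left, the authors' TPM of 3-Sep, 4-Sep and 5-Sep in each library, WT left of the dotted line and Ptch1cKO right of it; right, the share of the summed TPM of the 10 rows by subgroup, with 4-Sep apart. 4-Sep lies below the other 2 rows in every WT library and above them in every Ptch1cKO library, and its share runs from 5.37 to 8.65% in WT and from 11.1 to 16.3% in Ptch1cKO.

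Since Sept4 is known from both astrocytes and myelin, markers of the cell types were read in the same libraries. Summed over 12 astrocyte markers, the level was 24130 to 35163 CPM in the WT libraries and 18806 to 37918 CPM in those of Ptch1cKO. Slc1a2 alone had means of 18620 CPM in WT and 15926 CPM in Ptch1cKO, so the sum mostly follows it. Of the 12 markers 9 had positive and 3 negative fold changes, and none passed by edgeR over all genes, beside 0.1% of all genes. An unadjusted p under 0.05 was found for 1, Gjb6, beside 9.34% of all genes. Its log2 fold change was 0.80 (SE 0.29), its groups overlapped, and its adjusted p was 0.421 by edgeR over all genes. Summed over 12 markers of myelinating oligodendrocytes, the level was 13826 to 26794 CPM in the WT libraries and 17560 to 23285 CPM in those of Ptch1cKO. In both lists the Ptch1cKO and WT ranges overlapped. None of the 10 tested myelin genes passed by edgeR over all genes, beside 0.1% of all genes, and 4 had an unadjusted p under 0.05, beside 9.34% of all genes. These were Mag, Cldn11, Mobp and Cnp, with log2 fold changes of 1.07, 0.82, 0.42 and 0.41, while Mbp had 0.12 (SE 0.17). The values of Mag and Cldn11 lean on Ptch1cKO replicate 4, where they were counted 196 and 182 times. No other library exceeded 91 for Mag or 56 for Cldn11. That replicate was also the highest for 4-Sep, at 409 CPM. Ptch1cKO replicate 2, the next highest for 4-Sep at 381 CPM, had 48 counts of Mag and 54 of Cldn11. Its myelin sum, 17560 CPM, was the lowest of the Ptch1cKO libraries. The highest myelin sum, 26794 CPM, was that of WT replicate 2, where 4-Sep had 128 CPM.

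The other lists overlapped between genotypes as well. Neuronal markers summed to 12851 to 14592 CPM in the WT libraries and 11951 to 15302 CPM in those of Ptch1cKO. Their fold changes were positive in 4 and negative in 6, beside 50.4% negative over all genes tested. Microglial markers summed to 387 to 750 CPM in the WT libraries and 445 to 1127 CPM in those of Ptch1cKO, and all 9 had positive fold changes, with a median of 0.59. Oligodendrocyte precursor markers summed to 83.8 to 153 CPM in the WT libraries and 116 to 178 CPM in those of Ptch1cKO, with positive fold changes in 5 of 5 tested. Endothelial and mural markers summed to 18.5 to 31.4 CPM in WT and 11.8 to 24.4 CPM in Ptch1cKO, with 1 positive and 2 negative fold changes among the 3 tested. Of these Rgs5, a pericyte marker, had means of 9.75 ± 5.82 CPM in the WT libraries and 3.48 ± 1.72 CPM in those of Ptch1cKO (SD, n = 4). The groups overlapped, and its log2 fold change of -1.46 (SE 0.44) did not pass (adjusted p = 0.325 by edgeR over all genes). The others tested in that list, Pdgfrb and Flt1, had log2 fold changes of -0.02 (SE 0.29) and 0.09 (SE 0.68). Pdgfrb had means of 11.7 CPM in WT and 11.6 CPM in Ptch1cKO. Among neuronal, microglial, precursor, and endothelial and mural markers, 1 gene each had an unadjusted p under 0.05 (edgeR), beside 9.34% of all genes. These were Rbfox3, Siglech, Sox10 and Rgs5, and none passed by edgeR over all genes. The endothelial Cldn5 and Ly6c1 were at 0 in several libraries and had at most 3 counts in any. The part of these cell types in the Sept4 difference was not tested.

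**Figure D4:**
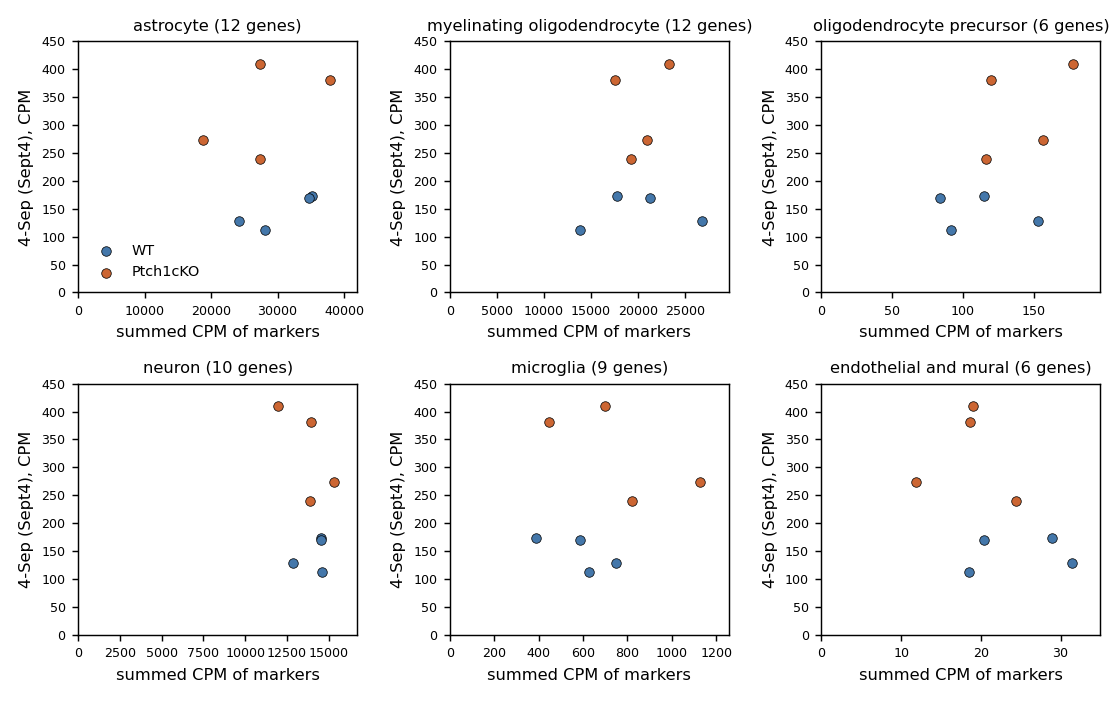
CPM of 4-Sep (vertical) against the summed CPM of the markers of 6 cell types (horizontal) in each of the 8 libraries, in blue for WT and orange for Ptch1cKO. On the vertical axis the genotypes part, from 113 to 173 and 239 to 409 CPM, and on each horizontal axis they overlap.

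Proteins that act with septins were read from a list of 20 genes, of which 15 were tested. None passed by edgeR over all genes, beside 0.1% of all genes, and DESeq2 called 0. An unadjusted p under 0.05 was found for 2 of the 15, beside 9.34% of all genes. Fold changes were positive in 11 and negative in 4, beside 50.4% negative over all genes, and the median was 0.09. The Borg proteins bind septin rods under the control of the GTPase Cdc42. Cdc42ep1, one of them, had 33, 32, 54 and 24 counts in WT and 70, 55, 44 and 92 counts in Ptch1cKO. It was the 1 of the 15 whose groups did not overlap once scaled for library size, beside 5.02% of all genes (2.52% with Ptch1cKO above). Its means were 5.77 ± 1.22 CPM in the WT libraries and 11.4 ± 2.60 CPM in those of Ptch1cKO (SD, n = 4), which gave a log2 fold change of 0.97 (SE 0.28) and an adjusted p of 0.300 by edgeR over all genes. The log2 fold change of Cdc42ep4, which is known to hold septins next to the glutamate transporter of cerebellar Bergmann glia, was 0.47 (SE 0.31), and that of Cdc42 itself was -0.14 (SE 0.12). Cdc42ep2, Cdc42ep3 and Cdc42ep5 had at most 8, 3 and 1 counts in a library and could not be tested.

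Among the remaining partners, Myh9, Cenpe and Map4 had the smallest p. Myh9, a heavy chain of non-muscle myosin, had 122 ± 15.8 CPM in the WT libraries and 153 ± 19.6 CPM in those of Ptch1cKO (SD, n = 4), which gave a log2 fold change of 0.33 (SE 0.14) and an adjusted p of 0.490 by edgeR over all genes. Map4, a microtubule-associated protein that septins can displace, had 0.16 (SE 0.12), and the mitotic kinesin Cenpe -0.84 (SE 0.54). Anillin (Anln), which joins septins to actin in dividing cells and to the septin filaments of myelin, had 10.7 ± 3.51 CPM in the WT libraries and 11.3 ± 1.56 CPM in those of Ptch1cKO (SD, n = 4). Its groups overlapped, as did those of Sept2, Sept7 and Sept8, the septins known to assemble with Sept4 in myelin.

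Likeness to Sept4 was measured as the correlation of log2 CPM over the 8 libraries after the mean of each genotype was removed, so that the difference between genotypes does not enter. It is a description with no test, over points that share library depth and cell makeup. Of 6755 genes whose mean reached 10 CPM, the 5 most alike were Orc2, Kif13b, Atad1, Otud7b and Tmem66, with Pearson coefficients of 0.99, 0.98, 0.98, 0.96 and 0.96. Their log2 fold changes between genotypes were small, from -0.30 for Kif13b to 0.04 for Orc2. Of the 8 other septins that reached this level, which Sept10 did not, Sept7 was the most alike at 0.31, rank 2106 of 6755. Sept9, Sept8 and Sept11 had negative coefficients within genotypes, at -0.71, -0.71 and -0.63. Their ranks were 6414, 6412 and 6173 of 6755, so values this low were found in many other genes.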

How the data were processed

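RNA exome libraries were made from low-input cDNA, per the labels' protocols. The submitters' processing notes name bcl2fastq 2.18, STAR 2.5 and mm10. The sources used here do not give the counting program, its annotation or its strand setting. Per symbol, the authors deposited raw whole-number counts. The deposited TPM were computed by the authors. For each septin row the ratio of count to TPM differed between libraries, after 1 factor per library, at most 1.0001-fold, which means that the same counts underlie both. The transcript lengths this ratio implies were 0.56 to 1.46 times the longest GENCODE M21 transcript of the septin named, where 5 to 95% of 5518 genes span 0.43 to 1.25.

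The test was that of edgeR 4.0.16 in R 4.3.3 (filterByExpr with a minimum count of 10, TMM, robust quasi-likelihood F test, Benjamini-Hochberg adjusted p under 0.05) over the 10954 genes kept of 20578 with a count. All 10 septin rows passed the filter. The SE is the log2 fold change divided by the square root of F. TPM were read as log2(TPM + 1) where tested. No libraries agreed within sampling noise (chi-square test of counts). Septins, gene lists and the rule for named genes (every septin row, tested Borg genes, 4 other partners with the smallest p, 5 genes most alike Sept4, leading markers) were chosen with earlier results of these data known. Anln, Rgs5, Pdgfrb, Flt1, Gjb6, Rbfox3, Siglech, Sox10 and the named myelin genes were chosen after their values were seen. Of the genes this rule names, 1 partner is not reported here. Alternatives were DESeq2 1.42.0, limma 3.58.1 with voom or on TPM, other scalings, no filter, a replicate block, 1 sex pattern and leaving out each library.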

Additional observations from a re-analysis of the deposited data

How the results depend on the processing

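The 4-Sep call was absent, leaving 0 septin rows called, in the 6 libraries with under 10 Xist counts and by limma on log2(TPM + 1), where 4-Sep had log2 fold changes of 1.21 and 1.02 and was the 1 septin row with an unadjusted p under 0.05. Leaving out 1 library gave 0 to 1 septin rows called. Genes called over the whole table numbered 79 by DESeq2, 199 without the count filter, 3 in the 6 libraries, 2 by limma on TPM, 5 with the replicate block and 1 to 19 with 1 library left out, against 11. The other 9 septin rows passed in 0 of 144 values (edgeR, DESeq2 and limma), and kept their direction in 134. Direction turned by limma on TPM for 2-Sep (-0.032), 5-Sep (-0.058) and 7-Sep (-0.085), and in the 6 libraries for 8-Sep (0.019). With 1 library left out it turned for 2-Sep (-0.0098 to 0.15), 5-Sep (-0.038 to 0.14), 7-Sep (-0.014 to 0.084), 8-Sep (-0.12 to 0.031) and 10-Sep (-0.30 to 0.0052). The cause was not tested. Septin partners called stayed at 0. Neighbour pairs parted in every library used numbered 5 or 6 when a genotype or a library was left out. On TPM without the pseudocount 5 pairs had an adjusted p under 0.05 by the exact sign-flip permutation test. Of the 5 genes most alike Sept4, 2 were among the first 5 by Spearman correlation and 0 with genotype means kept.

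Title numbers did not pair the libraries, with correlations of deviations of -0.259 to 0.0646 and 0 of 8 libraries most alike their own number. With the replicate block 4-Sep had a log2 fold change of 1.15 (edgeR, Benjamini-Hochberg adjusted p = 0.0467). Depth was lowest for 10-Sep, at 20 to 37 counts a library.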
